A study of Mus musculus with 8 samples.

Results

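The 7 genes Gzma, Gzmb, Gzmc, Prf1, Ifng, Nkg7 and Xcl1 were followed in CD45+ immune cells of healing mouse skin wounds. They were taken as a list of gene rows, all 7 of which were present among the 21755 genes named in the count tables. The wounds were full-thickness skin wounds on the back of male C57BL/6 mice, given as C57BL/6J in the study's methods. Diabetic mice had received streptozotocin (STZ, a toxin of the insulin-producing beta cells) once they were 4 weeks old, at 120 mg/kg, and were used only if their blood glucose was high. Control mice had no STZ listed, and neither group carried a transgene or a deleted gene. Wounds were taken 1, 3, 5 and 7 days after wounding. Each of the 8 libraries was made from 5 mice together, with 1 library for each group and day. A day on its own therefore had no replicate, and variation between mice could not be measured. The levels by library, class and day are given first, then the members within natural killer (NK) cells, T cells and mast cells, and then the other genes of the pathway.

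These genes belong to the killing machinery of NK cells and cytotoxic T lymphocytes. Both cell types store perforin (Prf1), which opens pores in the membrane of a target cell, and granzymes, serine proteases that enter through these pores and cause the death of the target. Granzyme B (Gzmb) cleaves caspases and their substrates, granzyme A (Gzma) acts by a route that does not need caspases, and granzyme C (Gzmc) is found in mice in strongly stimulated killer cells. Nkg7 is a membrane protein of the cytotoxic granule that takes part in its release. The same cells secrete interferon gamma (Ifng), which activates macrophages, and lymphotactin (Xcl1), a chemokine that attracts dendritic cells bearing the receptor Xcr1. In wounds, NK cells and several kinds of T cell enter among far larger numbers of neutrophils, monocytes and macrophages.

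The 7 genes lie on 5 chromosomes of the mouse genome GRCm38. Gzmb (chr14:56258838-56262260, minus strand) and Gzmc (chr14:56231441-56234656, minus strand) are neighbours in a granzyme cluster, 24181 bases apart. Gzma (chr13:113093825-113100981, minus strand) lies beside Gzmk in another granzyme cluster. Prf1 (chr10:61297833-61304680, plus strand) and Ifng (chr10:118441046-118445892, plus strand) share a chromosome without being neighbours. Nkg7 is at chr7:43437073-43438249 on the plus strand and Xcl1 at chr1:164931644-164935527 on the minus strand. Over the last 500 bases of each transcript, which libraries primed at the 3′ end mostly read, Gzma, Gzmb and Gzmc shared 0 of 451 stretches of 50 bases with any other granzyme, whereas over the whole Gzmc transcript 4.14% of the stretches were shared with Gzmd, Gzme or Gzmg.

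The 200 bases before the RefSeq start of 4 members are shown, those of the 3 granzymes of the list and of its cytokine interferon gamma. They are from RefSeq on GRCm38.p6 and are written 5′ to 3′ on the strand of the gene. Capitals mark a T-box motif (AGGTGT, or ACACCT on the other strand), which T-bet and Eomes bind, and a Runx motif (TGTGGT, or ACCACA on the other strand).
Gzma, chr13:113100982-113101181: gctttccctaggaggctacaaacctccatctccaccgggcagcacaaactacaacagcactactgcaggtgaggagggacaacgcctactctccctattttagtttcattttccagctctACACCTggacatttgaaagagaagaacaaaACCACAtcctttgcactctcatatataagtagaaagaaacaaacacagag
Gzmb, chr14:56262335-56262534: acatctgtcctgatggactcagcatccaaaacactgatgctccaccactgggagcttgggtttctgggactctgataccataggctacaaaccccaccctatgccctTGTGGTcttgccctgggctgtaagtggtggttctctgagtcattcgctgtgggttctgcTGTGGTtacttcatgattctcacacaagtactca
Gzmc, chr14:56234658-56234857: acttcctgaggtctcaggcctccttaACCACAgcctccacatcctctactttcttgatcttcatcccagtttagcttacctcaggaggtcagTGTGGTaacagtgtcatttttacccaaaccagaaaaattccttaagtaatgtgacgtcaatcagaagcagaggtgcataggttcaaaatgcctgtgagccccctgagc
Ifng, chr10:118440846-118441045: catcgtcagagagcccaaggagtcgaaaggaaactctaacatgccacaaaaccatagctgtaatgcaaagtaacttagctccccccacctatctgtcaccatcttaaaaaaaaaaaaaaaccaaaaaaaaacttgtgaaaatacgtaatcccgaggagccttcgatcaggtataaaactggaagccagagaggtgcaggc

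The Gzma window held 1 T-box and 1 Runx motif, the Gzmb and Gzmc windows held 2 Runx motifs each, and the Ifng window held neither. Over the windows of all 7 members, the T-box motif was present in 3 (Gzma, Prf1 and Nkg7) and the Runx motif in 5 (all but Ifng and Xcl1). Of 32851 promoter windows of the same length, 9.32% held the T-box letters and 11.2% the Runx letters. A match describes the letters alone, and binding was not measured.

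A total of 35215 cells were kept of 38959 barcodes, and the libraries held between 19236522 and 33842509 unique molecular identifiers (UMIs, each a counted transcript). The control library of day 5 stood apart. There, 28.5% of the barcodes were removed against 1.00 to 10.6% in the others, the median cell had 8219 UMIs against 2573 to 5219, and only 15 NK cell-like cells were found. The differences between the groups in sums that include it are therefore also given without day 5. The tests of NK cell-like sums include it only where libraries with at least 10 cells were admitted. Barcodes are numbered afresh in each table, so barcodes shared between libraries could not be counted. A doublet caller marked 105 cells, under 0.5%, and is not taken to have worked, so doublets remained in the values unless their removal is named.

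The cells were clustered with all 7 members left out, and clusters were named from marker genes that do not include them. The rules for naming were partly set after the clusters had been seen. Levels are given in CPM, the UMIs of a gene for each 1000000 UMIs of a library or class, mitochondrial genes left out. NK cell-like cells (660) held Klra8 at 543 CPM, Eomes at 461 and Ncr1 at 75, with Cd3e at 38. Alpha-beta T cell-like cells (1189) held Trac at 1342 and Cd3e at 484, and gamma-delta T cell-like cells (797) held Trdc at 2003. Lymphoid cells left without a name were 4.95 to 10.7% of all lymphoid cells in 7 libraries and 23.1% in the control library of day 5. Neutrophil-like cells, which should lack all 7 members, gave the measure of free RNA, with 7.1 CPM of Gzma and 7.8 of Gzmb over all libraries. Their Gzma level ran from 0 to 25.3 and was highest on day 7 in both groups.

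In all cells of a library, 6 of the 7 members were lower in the diabetic than in the control wounds on day 3 and higher on days 5 and 7. Gzma was at 40.3, 199, 6.86 and 92.5 CPM in control wounds on days 1, 3, 5 and 7, and at 34.3, 15, 130 and 146 in diabetic wounds. The 2 groups overlapped in range, and the control library of day 3 was the highest and that of day 5 the lowest of all 8. On day 3 the diabetic level was 0.0754 times the control level (exact Poisson 95% interval 0.0676 to 0.0839, which covers counting error only), and on day 5 it was 18.9 times the control level (16.4 to 22.0).

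Gzmb followed a like course, with 42.4, 81.6, 14.6 and 66.3 CPM in control wounds and 52.7, 22.8, 128 and 194 in diabetic wounds. Its highest library was the diabetic library of day 7, at 2.93 times the control level (2.78 to 3.08). Gzmc departed from the others on day 3, when both groups were close, at 24.5 in control and 26.3 in diabetic wounds (ratio 1.07, interval 0.954 to 1.21). It reached 47.9 in diabetic wounds on day 5 and stayed between 3.09 and 5.86 in control wounds on days 1, 5 and 7.

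Prf1, the pore-forming member, had 1277 UMIs over all libraries, the fewest of the 7, with 5.47, 7.44, 1.90 and 9.10 CPM in control wounds and 4.20, 1.64, 12.6 and 12.9 in diabetic wounds. Ifng was at 3.24, 14.6, 3.60 and 10.0 in control wounds and at 2.15, 3.56, 14.4 and 21.6 in diabetic wounds. These values put the highest Ifng level in the diabetic library of day 7, at 2.16 times the control level (1.87 to 2.49). Nkg7 ranged from 11.9 to 73.1 in control wounds and from 13.8 to 73.6 in diabetic wounds, and Xcl1 from 4.72 to 43.3 and from 7.51 to 57.1.

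**Figure D1:**
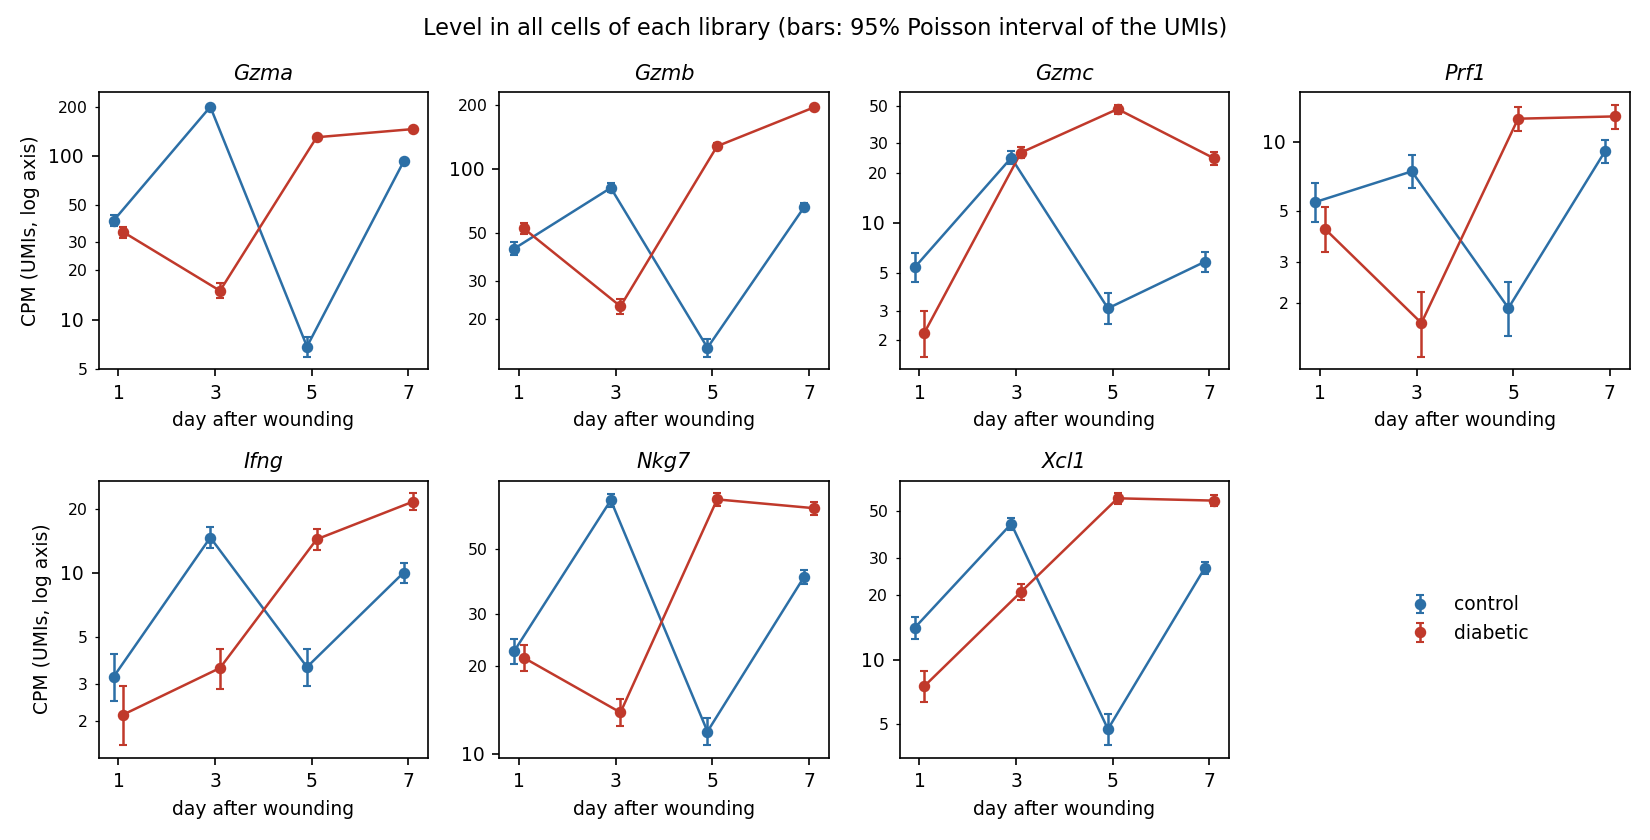
Level (CPM) of each member in all cells kept of a library (log axis, a separate scale for each gene) against the day after wounding, with control libraries in blue and diabetic libraries in red. Points are single libraries and bars are exact 95% Poisson intervals. The lines cross between days 3 and 5 in 6 genes, and the control point of day 5 is the lowest control value of all genes but Ifng.

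Over all 4 days together, 0 of the 7 members differed between the groups in edgeR's quasi-likelihood test with day as a block, against 0% of 12905 genes tested. At an unadjusted p under 0.05 there were 0 members and 1456 genes, and DESeq2 called 84 genes and 0 members. The log2 fold changes of diabetic over control were all above 0, from 0.20 ± 0.79 (SE) for Prf1 and 0.22 ± 1.31 for Gzma to 0.86 ± 0.83 for Gzmb and 1.27 ± 0.90 for Gzmc (adjusted p 0.56 to 0.95, 4 libraries in each group). Their median was 0.30, beside a median of 0.02 for all genes tested. Without day 5 the values of Gzma (-0.96), Prf1 (-0.60), Ifng (-0.46), Nkg7 (-0.52) and Xcl1 (-0.29) lay below 0, and Gzmb (0.05) and Gzmc (0.40) stayed above. Those of Gzma (-0.07) and Ifng (-0.18) also lay below 0 without day 7.

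A trend over days in both groups was called in 0 of the 7 members by edgeR, against 10.3% of 12905 genes tested. Ifng had the steepest slope, with a log2 change of 0.29 ± 0.14 a day (adjusted p = 0.20), and the other members had slopes between 0.03 and 0.17. With a day left out, the slope of Ifng ran from 0.13 to 0.38, while that of Gzmc reached 0.49. Without the control library of day 5, 0 members were called and the slopes lay between 0.13 (Gzmc) and 0.35 (Ifng, adjusted p = 0.097). The unadjusted p was under 0.05 for 0 members, and DESeq2 called 0 members as well. A difference in slope between the groups was called in 0 members, against 0% of the 12905 genes. The diabetic slope was above the control slope in all 7 members, by 0.30 a day for Prf1 up to 0.72 for Gzmc, with an adjusted p of 1.00 in each. Leaving out a day moved the difference in slope to between 0.22 (without day 3) and 1.17 (without day 7) for Gzma, 0.20 (without day 5) and 0.85 (without day 7) for Prf1, and 0.46 (without day 1) and 1.34 (without day 7) for Gzmc. It was between 0.24 (Prf1) and 0.64 (Gzmc) without the control library of day 5, and 0 members were called in any of these fits. An unadjusted p under 0.05 was found for 0 members and 217 genes, and DESeq2 called 2 genes and 0 members.

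The share of NK cell-like cells also varied between the libraries. These cells made up 0.997, 1.97, 0.458 and 3.25% of the cells of the control wounds on days 1, 3, 5 and 7, and 0.418, 0.625, 3.36 and 4.38% of those of the diabetic wounds. The shares of alpha-beta T cell-like cells were 1.09, 3.12, 2.41 and 4.58% on these days for control and 0.921, 0.938, 4.29 and 11.6% for diabetic wounds. Both shares were lower in diabetic than in control wounds on day 3 and higher on days 5 and 7. In sums over all cells, fewer cells of a type and less RNA per cell cannot be told apart, which is why the levels within each class follow.

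Across all libraries, NK cell-like cells held most UMIs of 4 members although they gave 1.82% of all UMIs. They held 78.0% of the Gzmc UMIs, 73.0% of Prf1, 71.6% of Xcl1 and 65.3% of Gzma. Ifng and Nkg7 were divided between NK cell-like cells (47.6 and 49.1%) and alpha-beta T cell-like cells (29.7 and 26.4%). Gzmb was the most widely spread member, with 36.4% in alpha-beta T cell-like cells, 31.6% in NK cell-like cells, 8.0% in mast cell-like cells and 6.85% in gamma-delta T cell-like cells. By library the order could differ. NK and alpha-beta T cell-like cells held 44.6 and 46.7% of Gzma in control wounds on day 3 and 38.1 and 40.6% in diabetic wounds on day 1. Of Gzmc in the latter library, 31.0% was in NK cell-like and 52.4% in mast cell-like cells (13 and 22 UMIs), and of Xcl1 in control wounds on day 5, 20.9% was in NK cell-like and 47.5% in gamma-delta T cell-like cells. Prf1 was mostly in NK cell-like cells in every library (62.5 to 84.8%). These shares depend on how the class is drawn, since cells taken singly by their marker UMIs gave NK shares of 17.4 (Gzmb) to 44.6% (Prf1).

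**Figure D2:**
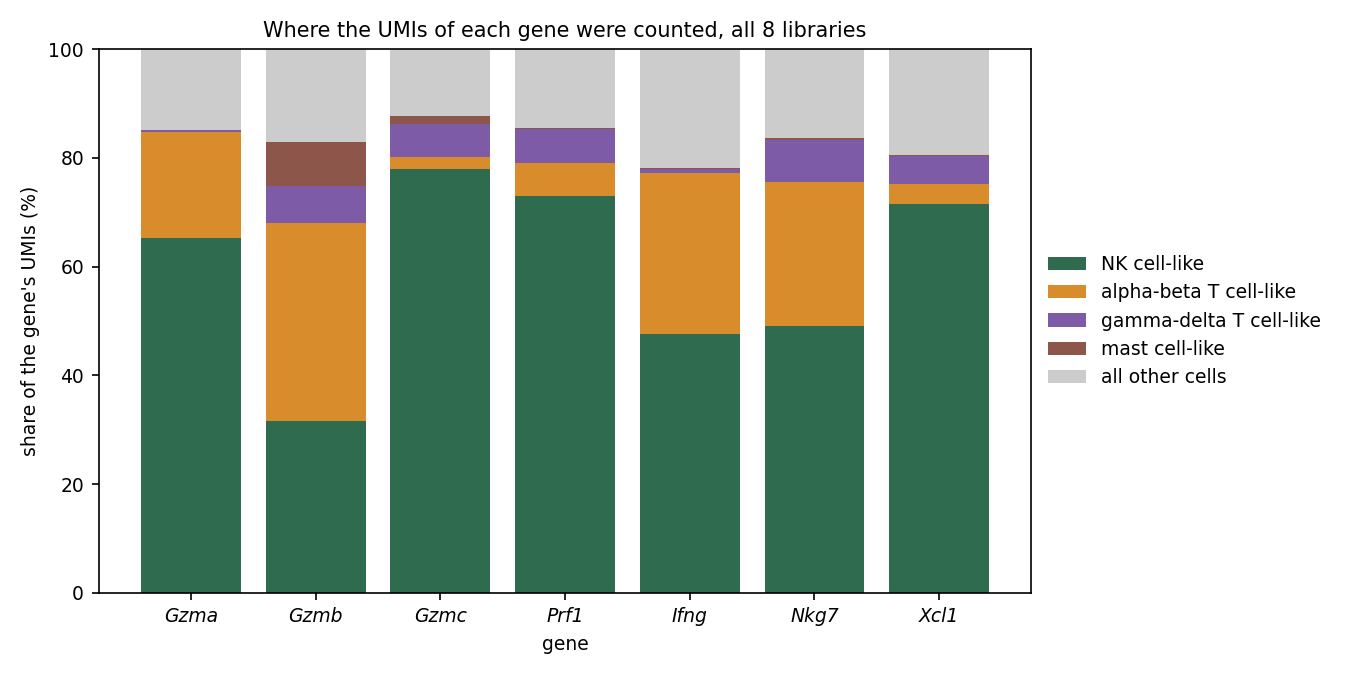
Share of the UMIs of each gene (percent, all 8 libraries summed) counted in NK cell-like, alpha-beta T cell-like, gamma-delta T cell-like and mast cell-like cells and in all other cells. NK cell-like cells hold over 65% of Gzma, Gzmc, Prf1 and Xcl1, and Gzmb is the member with the largest mast cell-like share, 8.0%.

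The share of cells with a UMI was measured after each cell had been thinned to 1000 UMIs. In 615 NK cell-like cells (45 shallower cells left out), Gzma was detected in 58.5% (95% binomial interval 54.5 to 62.5), Nkg7 in 57.9%, Xcl1 in 46.2%, Gzmb in 42.8%, Prf1 in 22.4%, Ifng in 15.8% and Gzmc in 10.4%. Without thinning these shares were 66.5, 82.4, 67.7, 62.7, 43.9, 37.9 and 16.8%. In 9104 neutrophil-like cells, 0.0659 to 0.714% had a UMI of a member, at a median of 2690 UMIs per cell before thinning against 4565 in NK cell-like cells. The background over all libraries was therefore under 1% for all 7 genes. It was higher in the 206 neutrophil-like cells of the diabetic library of day 7, at 4.85% for Gzmb, 2.91% for Nkg7, 2.43% for Xcl1 and 1.94% for Gzma.

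Within NK cell-like cells, Gzma was highest in control wounds on days 1 and 3 and lowest in the diabetic library of day 3. It was at 3838, 3795 and 2918 CPM of the class in control wounds on days 1, 3 and 7, and at 3202, 1323, 2589 and 2689 in diabetic wounds on days 1, 3, 5 and 7. The 15 cells of the control library of day 5 gave 2770 (interval 2339 to 3258) and were left out of the tests, which needed 20 cells. On each of the 3 days with both groups the diabetic level was the lower one, with ratios of 0.834 (0.718 to 0.967), 0.349 (0.304 to 0.399) and 0.921 (0.869 to 0.977) on days 1, 3 and 7.

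Gzmb in NK cell-like cells was at 1880, 1061 and 1287 CPM in control wounds and at 1993, 439, 1280 and 1297 in diabetic wounds. Its groups were level on days 1 and 7 (ratios 1.06 and 1.01, intervals 0.869 to 1.29 and 0.924 to 1.10) and apart on day 3 (0.414, interval 0.323 to 0.524). Prf1 was at 513, 269 and 266 in control wounds and at 656, 146, 257 and 217 in diabetic wounds. Among libraries with at least 20 cells, both groups thus had their highest Prf1 level on day 1. Nkg7 was at 1474, 1650 and 893 in control wounds and at 1389, 776, 1004 and 919 in diabetic wounds, again with the widest gap on day 3 (ratio 0.470, interval 0.390 to 0.562).

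On day 3, Gzmc was higher in diabetic than in control NK cell-like cells, while Gzma and Gzmb were lower. Lymphoid cluster 10, a part of the class described further on, held 50% of these cells in the diabetic and 10.5% in the control library of that day. Its part in these differences was not tested. The Gzmc level in NK cell-like cells was 555, 914 and 134 CPM in control wounds and 167, 2994, 953 and 448 in diabetic wounds. The diabetic library of day 3, which was the lowest for Gzma, Gzmb and Prf1, was the highest for Gzmc, at 3.28 times the control level (2.88 to 3.72). On day 7 the ratio was 3.35 (2.69 to 4.20), and on day 1 it was 0.301 (0.155 to 0.541) on 13 UMIs in the diabetic library.

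Ifng, a secreted member, lay between 186 and 291 CPM in the NK cell-like cells of the 7 libraries with at least 20 of them. It was at 233, 234 and 229 CPM in control wounds and at 193, 222, 186 and 291 in diabetic wounds. The ratio of diabetic to control was 1.27 on day 7 (1.04 to 1.55), and its interval included 1 on days 1 and 3 (0.829 and 0.952). Xcl1 was at 1176, 1545 and 731 in control wounds and at 952, 1898, 1172 and 967 in diabetic wounds, with the highest level on day 3 in both groups. Its ratios were 0.809 (0.611 to 1.06), 1.23 (1.08 to 1.40) and 1.32 (1.19 to 1.47) on days 1, 3 and 7.

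**Figure D3:**
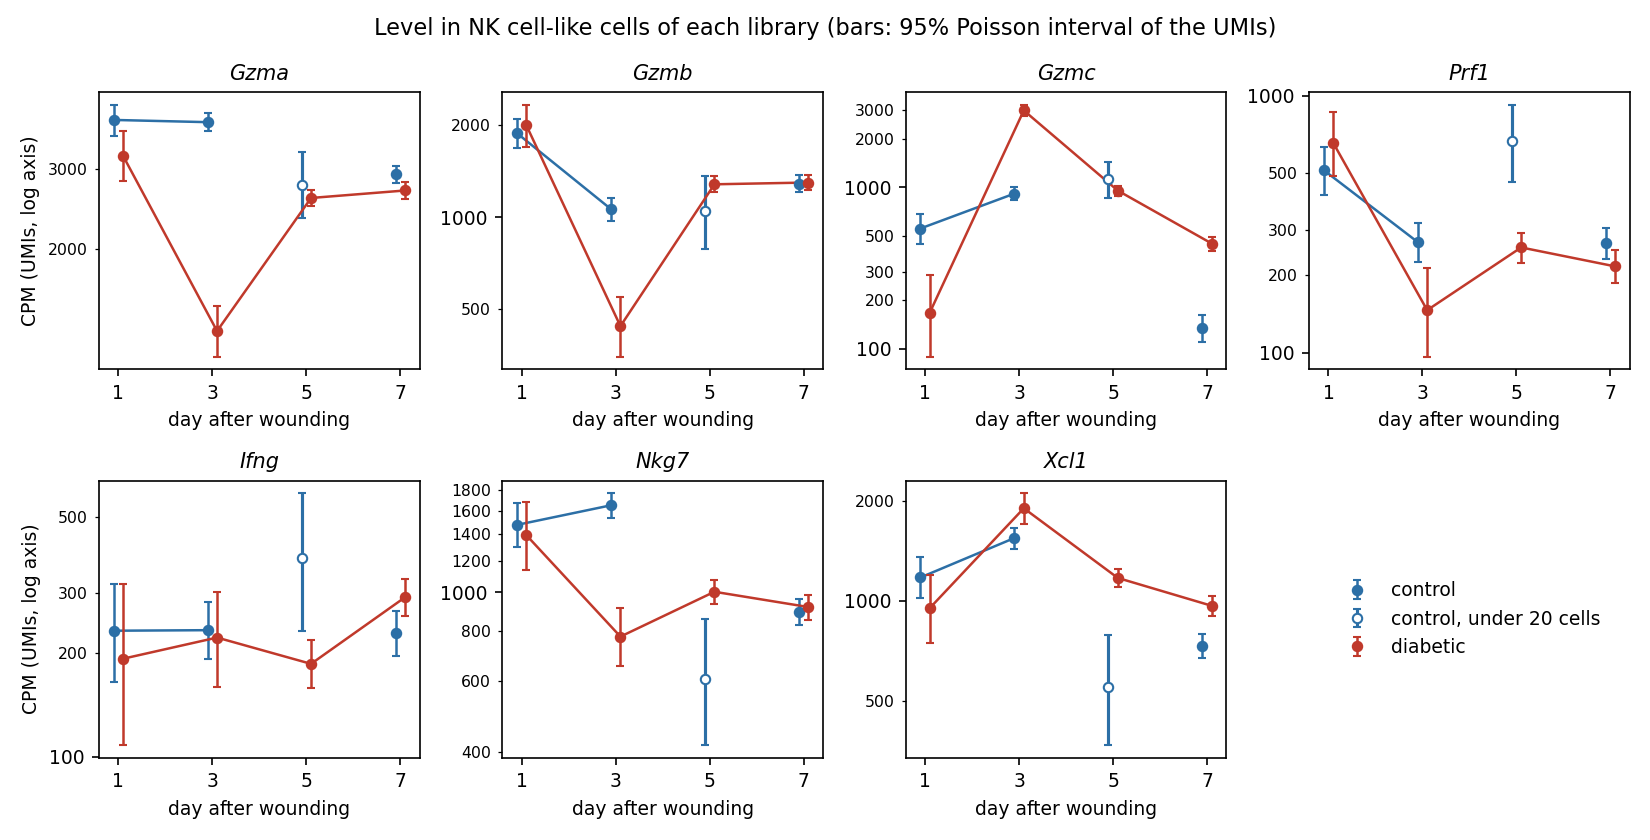
Level (CPM) of each member within NK cell-like cells (log axis, a separate scale for each gene) against the day after wounding, with exact 95% Poisson bars. Open symbols mark the control library of day 5, with 15 cells, and lines are broken there. On day 3 the diabetic point lies below the control point for Gzma, Gzmb, Prf1 and Nkg7 and above it for Gzmc and Xcl1.

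In edgeR's test over 7 libraries, 0 of the 7 members differed between diabetic and control NK cell-like cells, against 0.049% of 6120 genes tested, and DESeq2 called 0 members. With day as a block, the difference rested on days 1, 3 and 7, which had both groups, and left 2 residual degrees of freedom. The unadjusted p was under 0.05 for 2 members and 324 genes. Gzma had a log2 fold change of -0.67 ± 0.21 (SE; adjusted p = 0.47) and Gzmc one of 0.94 ± 0.37 (adjusted p = 0.84). Nkg7 (-0.42 ± 0.21), Gzmb (-0.40 ± 0.22), Prf1 (-0.30 ± 0.25), Xcl1 (0.12 ± 0.19) and Ifng (0.03 ± 0.26) had adjusted p of 0.97 to 1.00. Without day 1, which left 1 residual degree of freedom, Gzma (-0.84, adjusted p = 5.1e-04) and Gzmc (1.68, adjusted p = 7.6e-14) passed the threshold, and with cells classed singly by their markers Gzmc did (2.63, adjusted p = 0.0073). Of all genes, 0 to 48 were called when a day was left out. Over all alternatives the adjusted p of Gzma and of Gzmc reached 1.00. Without day 3 the values were -0.27 for Gzma and 0.35 for Gzmc, and without day 7 they were -0.93 and 0.37. The Gzma value was at -0.11 without cluster 10, described further on, and with libraries of at least 10 cells, which include the control library of day 5.

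A trend over days was called by edgeR in 0 of the 7 members within NK cell-like cells, against 0.327% of 6120 genes tested. Prf1 had a log2 change of -0.17 ± 0.06 a day (adjusted p = 0.56), and 1 member and 389 genes had an unadjusted p under 0.05. The slope of Prf1 lay above 0 without day 1 (0.03) and passed the threshold without day 3 (-0.21, adjusted p = 0.043). Without day 1, Gzmc (-0.70, adjusted p = 6.3e-10) and Xcl1 (-0.27, adjusted p = 0.0010) passed as well. With all days, edgeR gave slopes of -0.32 for Gzmc (adjusted p = 0.82) and -0.10 for Xcl1 (adjusted p = 0.91). Leaving out another day put these slopes at up to 0.41 and 0.11. Of all genes, 0 to 105 were called when a day was left out. DESeq2 called 0 members.

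Different clusters held most NK cell-like cells on different days, so that these slopes also compare clusters. Lymphoid cluster 4 held 95.5 and 73.7% of them in control wounds on days 1 and 3, and cluster 5 held 78.8% in control and 51.2% in diabetic wounds on day 7. Cluster 12, whose leading genes include the cell cycle genes Top2a and Mki67, held 26.2% in the diabetic library of day 5. Cluster 10 held 4.55, 10.5 and 13.2% in control wounds on days 1, 3 and 7 and 20, 50, 25.5 and 25.6% in diabetic wounds on days 1, 3, 5 and 7.

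Cluster 10 (131 cells) held 1872 of the 2431 Gzmc UMIs of NK cell-like cells. Summed over all libraries, Gzmc was at 2577 CPM in cluster 10 and at 128, 115 and 520 in clusters 4, 5 and 12. Gzma, in contrast, was lowest in cluster 10, at 494 against 3912, 3382 and 2953 in clusters 4, 5 and 12. Prf1 (89 against 164 to 407) and Gzmb (503 against 1067 to 1680) were lowest in cluster 10 as well, whereas Xcl1 was highest there (1556 against 780 to 1210) and Ifng was at a like level in all 4 clusters (220 to 270).

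Cluster 10 also differed from the other NK cell-like clusters in genes outside the list, which were chosen after their values had been seen. Eomes, the T-box factor of mature NK cells, was at 66.1 CPM against 514 to 640, while Tbx21, which encodes T-bet, was at 139 against 134 to 238. Kit was at 314 against 30.8 to 51.7, and Il7r, the receptor chain of interleukin 7 found on many innate lymphoid cells, was at 585 against 50.8 to 145. Cxcr6 was at 129 against 9.97 to 27.5. Itga1 was at 107 against 19.0 to 27.5 and Itga2 at 16.5 against 55.1 to 78.9. Of the NK markers, Klrb1c was at 114 against 236 to 260 and Ncr1 at 49.6 against 55.1 to 106. The Cd3e level of cluster 10, 71.6, was above those of the others (15.4 to 58.5) and far below the 484 of alpha-beta T cell-like cells. Its score for the NK markers, 0.40 (the mean log2 ratio to the other lymphoid cells), was below those of the other 3 clusters (1.38 to 1.90). It was placed in the class because its summed Cd3 level, 234, was under 0.5 of the mean of the lymphoid cells and its NK score was above its score for group 2 innate lymphoid cells. Whether it is a population of its own, and whether its cells are NK cells, was not tested.

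Without cluster 10 and with libraries of at least 10 cells, an alternative added after the data had been seen, the difference between the groups in Gzmc was -0.34 and that in Gzmb 0.09, with an adjusted p of 1.00 in both. The limit of 10 cells also brought in the control library of day 5. Leaving out day 5 as well gave 0.61 for Gzmc, -0.03 for Gzmb and -0.21 for Gzma (adjusted p = 1.00 in each), so that the values of Gzmc and Gzmb lay on the other side of 0 only with day 5 in the fit. With cluster 10 kept and at least 10 cells, Gzmc was at 0.65 and Gzmb at -0.22. On day 7, with 131 such cells in control and 119 in diabetic wounds, the ratios of diabetic to control were then 1.04 (0.978 to 1.10) for Gzma, 1.02 (0.934 to 1.12) for Gzmb and 1.02 (0.763 to 1.37) for Gzmc. Xcl1 was at 1.49 times the control level (1.32 to 1.68) and Ifng at 1.36 times (1.08 to 1.71) in these cells. In cluster 5 alone on day 7, Gzma was at 3320 in control and 3476 in diabetic wounds, and Gzmb at 1510 and 1348.

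**Figure D4:**
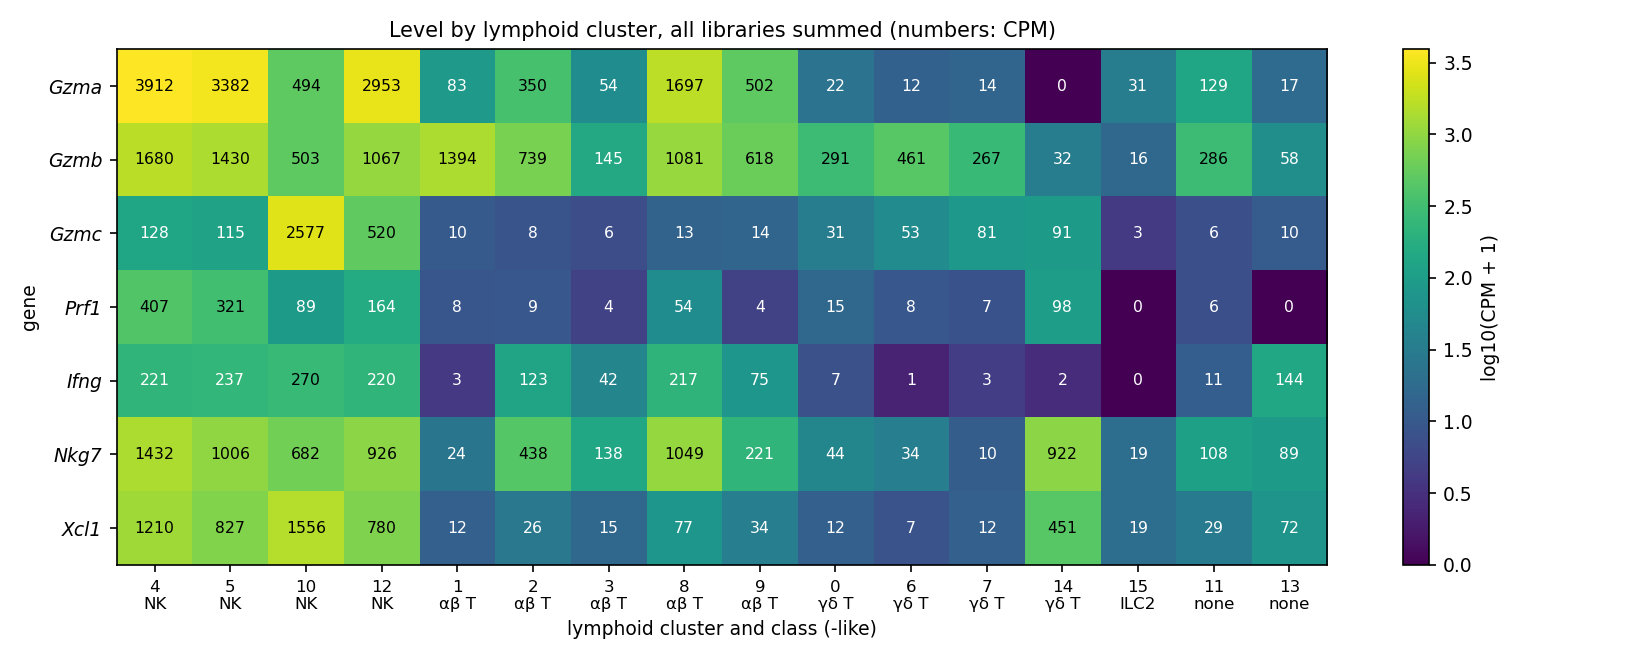
Level (CPM) of each member (numbers, with colours on a log10 scale of the value plus 1) in the 16 lymphoid clusters, all libraries summed and grouped by class. Gzmc peaks in cluster 10, at 2577, where Gzma is at 494. Gzmb is high in alpha-beta T cluster 1, at 1394, where Prf1 and Ifng are at 8 and 3.

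The UMIs of a member were unevenly divided among NK cell-like cells, and most so for Gzmc. Its 2431 UMIs were found in 111 of 660 cells, and the 66 cells with the most held 97.2% of them, with up to 217 UMIs in a cell. For Gzma (439 cells) the top 66 cells held 46.4% of 9790 UMIs, for Gzmb (414 cells) 58.7% of 4276, and for Nkg7 (544 cells) 32.2% of 3624. The diabetic library of day 3 was unlike the others, since Gzmc was found in 16 of its 34 cells and the top 10% of cells held 51.8% of its UMIs, against 92.3 to 100% in the others. Levels of Gzmc in the remaining libraries thus rest on 2 to 28 cells with a UMI each.

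**Figure D5:**
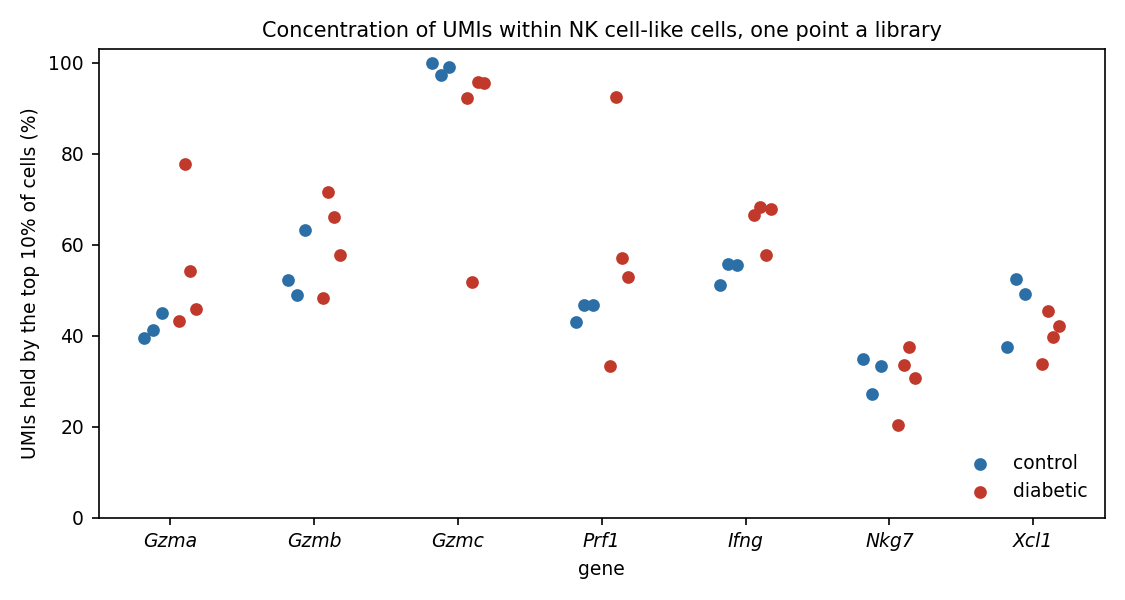
Percent of the UMIs of each gene that the 10% of NK cell-like cells with the most UMIs of it held, with 1 point for each library of at least 20 cells (control blue, diabetic red). The Gzmc points lie between 92.3 and 100% apart from the diabetic library of day 3, at 51.8%, and Nkg7 lies lowest, at 20.4 to 37.5%.

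In the 615 thinned NK cell-like cells, Gzma and Gzmb were found together in 215 cells, Gzma without Gzmb in 145 and Gzmb without Gzma in 48. Gzmc was found in 64 cells, of which 15 also had a UMI of Gzma, 13 one of Gzmb and 34 one of Xcl1. Gzma and Xcl1 were found together in 156 cells and apart in 204 and 128. These counts are a description, because cells of a library share their source and a thinned cell can miss a transcript it holds.

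Genes of other cell types were measured in the same NK cell-like cells. The summed level of 7 neutrophil markers was 3140 and 2739 CPM on day 1 in control and diabetic wounds and 969 to 1985 in the 5 later libraries of at least 20 cells. That of 8 macrophage markers was 167 to 328 on day 1 and 2743 to 4864 on day 7, and that of 12 dendritic cell markers was 442 to 887 on day 1 and 4505 to 6098 on day 7. Of the macrophage markers, 0 or 1 were at 0 in these libraries. The groups also differed in these sums. On day 3 the neutrophil markers were at 1271 and 1985 CPM and the macrophage markers at 842 and 1426 in control and diabetic wounds, and on day 7 the macrophage markers were at 4864 and 2743. Their part in the slopes and in the ratios of days 3 and 7 was not tested.

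In alpha-beta T cell-like cells, Gzma was high in 2 libraries and low in the other 6. It was at 234, 2220, 32.7 and 91.5 CPM of the class in control wounds on days 1, 3, 5 and 7, and at 1291, 221, 272 and 139 in diabetic wounds. The control library of day 3 had 1889 UMIs in 45 of its 150 cells, of which 15 cells held 77.2%. The diabetic library of day 1 had 265 UMIs in 12 of its 44 cells. Gzmb was highest in the diabetic library of day 1 as well, at 2591, and was otherwise between 292 and 1004.

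Of the other members, Xcl1, Prf1 and Gzmc were low in these cells. Nkg7 was at 513, 621, 194 and 233 in control wounds and at 818, 229, 415 and 160 in diabetic wounds, and Ifng was between 33.3 and 170. Xcl1 was between 4.87 and 66.6, on 1 to 66 UMIs a library, and Prf1 and Gzmc were at 12.6 and 10.5 over all libraries. After thinning, Prf1 was found in 1.04% of 1159 alpha-beta T cell-like cells and Gzmc in 0.949%, beside 0.0659 and 0.132% of neutrophil-like cells. Both were left out of the tests by the filter on low counts, so that 5 of the 7 members were tested.

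Over all days, 0 of these 5 members differed between the groups in edgeR's test, against 0% of 6791 genes tested. At an unadjusted p under 0.05 there were 1 member and 261 genes, and DESeq2 called 0 genes. Xcl1 had a log2 fold change of 0.87 ± 0.39 (SE; adjusted p = 1.00), Gzma one of 0.69 ± 0.78 and Gzmb one of 0.64 ± 0.33, whereas those of Ifng (-0.39 ± 0.37) and Nkg7 (-0.08 ± 0.33) lay below 0. The value of Gzma lay at -0.05 without day 1. Without day 5 the values were 0.67 for Xcl1, -0.04 for Gzma, 0.30 for Gzmb, -0.71 for Ifng and -0.47 for Nkg7.

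A trend over days was called by edgeR in 0 of the 5 members, against 0.471% of 6791 genes tested. Nkg7 had a log2 change of -0.30 ± 0.07 a day (adjusted p = 0.086), Gzma one of -0.59 ± 0.19 (adjusted p = 0.24) and Gzmb one of -0.23 ± 0.07 (adjusted p = 0.23), and these 3 members were the ones with an unadjusted p under 0.05. All 3 passed the threshold without day 3, with adjusted p of 0.010 for Nkg7, 0.0089 for Gzma and 0.026 for Gzmb. Of all genes, 0 to 97 were called when a day was left out, and the slope of Gzmb then ran from -0.41 to -0.05. DESeq2 called Nkg7 alone (-0.30, adjusted p = 0.014). Cluster 2 held 89.6 and 70.5% of the class on day 1 and cluster 3 held 34.3 and 33.0% on day 7 in control and diabetic wounds, so that the slopes compare different clusters as well. Without the control library of day 5, 0 members were called, with Nkg7 at -0.28 (adjusted p = 0.10). Genes of other cell types were also measured in these cells. From day 1 to day 7 the summed level of 8 macrophage markers went from 302 to 4823 CPM in control and from 292 to 2880 in diabetic wounds, and that of 12 dendritic cell markers from 690 to 4291 and from 653 to 5632. That of 7 monocyte markers went from 1671 to 782 and from 3234 to 677, and that of 7 neutrophil markers from 2584 to 1374 and from 2514 to 1193. Of the dendritic cell markers 4 were at 0 on day 1 in both groups, and of each of the other lists 0 or 1 were at 0 in these 4 libraries. The part of these markers in the slopes was not tested.

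The alpha-beta T cell-like clusters used different members of the list. Cluster 8 (203 cells), led by Cd8a, Cd8b1, Ccl5 and Gzmk, was the one nearest to the NK cell-like clusters, with 1697 CPM of Gzma, 1081 of Gzmb, 1049 of Nkg7, 217 of Ifng and 54 of Prf1. Its Gzma level was 6940 in the control library of day 3, against 349 in the control library of day 7 and 805 and 280 in the diabetic libraries of days 5 and 7. Its Ifng level stayed between 184 and 266 in the same 4 libraries.

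Cluster 1 (282 cells), led by Foxp3 and Ctla4, which mark regulatory T cells, had Gzmb at 1394 CPM, while Gzma was at 83, Nkg7 at 24, Xcl1 at 12, Gzmc at 10, Prf1 at 8 and Ifng at 3. Its Gzmb level was 1028 in the control library of day 7, 1732 in the diabetic library of day 5 and 1659 in that of day 7, the libraries with at least 20 of its cells. Cluster 2 was led by Gm8369, Ifit3 and Slfn1, with Cd4 also among its leading genes. Of the marker lists it scored highest for that of CD8 T cells (0.85). Its Gzma (1469) and Gzmb (2937) were highest in the diabetic library of day 1, on 31 cells, against 243 and 1128 in the control library of that day. Cluster 3, led by Tnfsf8 and Cd4, had Gzmb at 145 and Nkg7 at 138. Without cluster 8, an alternative added after the data had been seen, the slope of Nkg7 was -0.45 a day (adjusted p = 0.0032).

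In gamma-delta T cell-like cells, Gzmb, Nkg7 and Xcl1 were found in every library. Nkg7 was between 58.8 and 702 CPM, Xcl1 between 29.0 and 380 and Gzmc between 0 and 123, with the highest Nkg7 and Xcl1 in the control library of day 5. Gzmb was at 484, 169, 97.9 and 165 CPM in control wounds and at 341, 144, 368 and 485 in diabetic wounds, and was found in 11.8% of 786 thinned cells. The diabetic level was 3.76 times the control level on day 5 (2.31 to 6.53) and 2.94 times on day 7 (2.38 to 3.65), and its interval included 1 on days 1 and 3 (ratios 0.704 and 0.852). On day 5, cluster 14, whose Gzmb was at 32, made up 61.5% of the class in the control and 5.47% in the diabetic library. The 8 macrophage markers summed to 7351 and 623 CPM in the class in these libraries and the 12 dendritic cell markers to 5210 and 2893. On day 7 the macrophage markers were at 4786 and 2686 in control and diabetic wounds and the dendritic cell markers at 4120 and 6871. Of the macrophage markers 0 were at 0 in these 4 libraries, and of the dendritic cell markers 0 or 1. The part of the cluster and of these markers in the ratios was not tested. Ifng was at 3.69 over all libraries, on 12 UMIs, and Gzma at 13.9, on 45 UMIs, which is near the 13.9 of macrophage-like cells. After thinning, Ifng was found in 0.509% of the cells and Gzma in 1.27%, beside 0.0769 and 0.549% of neutrophil-like cells. In the diabetic library of day 7, Gzma was found in 2.90% of gamma-delta T cell-like and in 1.94% of neutrophil-like cells, on 4 cells each, which cannot be told apart at this depth.

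Nkg7 and Xcl1 in gamma-delta T cell-like cells came mostly from 1 cluster. Cluster 14 (98 cells), led by Fermt2, Avil and Cd7, held 488 of the 570 Nkg7 UMIs and 239 of the 267 Xcl1 UMIs of the class. It had Nkg7 at 922 CPM, Xcl1 at 451, Prf1 at 98 and Gzmb at 32, and 0 UMIs of Gzma. Clusters 0, 6 and 7, led by genes such as Il17a, Il17f, Blk and Cd163l1, which mark interleukin 17-producing cells, had Gzmb at 291, 461 and 267 and Nkg7 at 44, 34 and 10. Cluster 14 made up 61.5% of the gamma-delta T cell-like cells in the control library of day 5, where Nkg7 was highest in the class (702), and 2.16 to 29.3% in the others.

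In edgeR's tests, 0 of the 4 members that passed the filter in gamma-delta T cell-like cells (Gzmb, Gzmc, Nkg7 and Xcl1) differed between the groups, against 0% of 4181 genes tested. At an unadjusted p under 0.05 there were 0 members and 123 genes, and DESeq2 called 0 genes. Gzmb had a log2 fold change of 0.70 ± 0.42 (SE, adjusted p = 1.00) and Nkg7 one of -0.86 ± 0.39 (adjusted p = 1.00). Xcl1 had one of -0.59. Without day 5 the values were 0.35, -0.36 and 0.31, with an adjusted p of 1.00 in all 3, and Gzmc did not pass the filter. A trend over days was called in 0 of the 4, against 0% of 4181 genes tested, with 0 members and 252 genes at an unadjusted p under 0.05, and DESeq2 called 5 genes.

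Mast cell-like cells (146), named from markers such as Cpa3 and Mcpt4, held 1084 UMIs of Gzmb, 45 of Gzmc, 26 of Nkg7, 11 of Xcl1 and 1 to 6 of the other 3 members. Of the Gzmc UMIs, 22 were in the diabetic library of day 1. Gzmb was at 1962, 1533, 15.1 and 65.2 CPM of the class in control wounds on days 1, 3, 5 and 7, and at 1017, 2326, 763 and 3437 in diabetic wounds. The control libraries of days 5 and 7 were lowest, on 1 and 11 UMIs in 12 and 18 cells. In thinned cells Gzmb was found in 24.1% of 141 (17.3 to 32.0), Gzmc in 2.13%, and Gzma and Prf1 in 0.709% each. With 10 to 25 cells a library, the levels were not tested.

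The courses of the members over cell classes were alike to different degrees. Over 77 sums of a class in a library with at least 20 cells, the Pearson correlation of the levels (log2 of the CPM after 10 had been added) was highest between Gzma and Ifng (0.95) and between Prf1 and Xcl1 (0.92), and lowest between Gzmb and Gzmc (0.61). These sums share libraries and free RNA, and the correlations are a description. The genes outside the list most like Ifng were Tbx21 (0.97), Gimap4 (0.97) and Fasl (0.95), and those most like Gzma were Tbx21 (0.94), Gimap4 (0.92) and Eomes (0.91). Nkg7 was most like Klrc1 (0.97), Ctsw (0.96) and Trbc1 (0.95). Prf1 was most like Klrc2 (0.93), Klrb1a (0.91) and Sult2b1 (0.91), and Xcl1 most like Sult2b1 (0.92), Nrgn (0.90) and Klrb1a (0.90). Gzmb was most like Sytl3, Cobll1 and Gimap5 (0.91 to 0.92), and Gzmc most like Klrb1a (0.86), Qrfp (0.83) and Klra7 (0.83).

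The other genes of the pathway were taken as 9 lists of 74 genes. Beside the members, the other 6 granzymes found in the tables were scarce in NK cell-like cells, at 16.7 CPM for Gzmd, 8.2 for Gzmk, 7.3 for Gzme and 2.9 for Gzmm, and Gzmk was at 43.5 in alpha-beta T cell-like cells. Among granule proteins, the protease Ctsw was at 379 in NK cell-like cells, against 92.6 in alpha-beta T cell-like cells. Srgn, the proteoglycan core of granules, was at 3165 in NK cell-like and 18183 in neutrophil-like cells. The chemokine Ccl5 was at 4164 in NK cell-like and 2091 in alpha-beta T cell-like cells, and Fasl, the death ligand, at 118 and 43.6.

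Of the 64 genes of these lists tested in all cells, 0 differed between the groups in edgeR's test, 17 fell over the days in a fit over both groups and 0 rose. Of all 12905 genes tested, 6.94% fell and 3.33% rose. The cytokines that stimulate killer cells were the list with the largest share, with 4 of 5 tested. Il12a fell by 0.72 a day on the log2 scale (adjusted p = 0.031), Il27 by 0.43 (0.027), Il15 by 0.34 (0.030) and Il18 by 0.25 (0.025). Il12b was tested as well and was not called. It was at 2.71, 7.74, 11.2 and 5.70 CPM in control wounds on days 1, 3, 5 and 7, and at 8.61, 7.17, 8.95 and 31.8 in diabetic wounds. Among the 8 classes compared, Il12b was highest in dendritic cell-like cells, at 85.8. In these libraries Il12a and Il15 were highest in neutrophil-like cells, at 46.0 and 135 CPM, and Il18 in monocyte-like cells, at 44.8. Neutrophil-like cells made up 52.2% of the cells in control and 45.5% in diabetic wounds on day 1, and 1.96 and 5.66% on day 7. Monocyte-like cells made up 25.1 and 27.5% on day 1 and 1.12 and 4.35% on day 7. Clusters left without a name held 15.4% of control and 19.0% of diabetic cells on day 1, and 33.0 and 36.9% on day 7. Of these clusters, that of 2742 cells was led by Igkc, with the neutrophil markers Cxcr2, Csf3r, Lrg1 and Il1r2 also among its leading genes. The neutrophil-like shares may therefore leave out neutrophils, and the paper counted more of them on day 7 in both groups. The part of the neutrophil-like and monocyte-like shares in the slopes was not tested.

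Of the 11 genes induced by interferon gamma that were tested, 4 fell and 0 rose, beside the 6.94% of all genes that fell. Gbp2, a guanylate-binding protein, fell by 0.32 a day (adjusted p = 0.017), Cxcl10 by 0.29 (0.028), Gbp5 by 0.22 (0.047) and Irgm1 by 0.22 (0.025), and the median slope of the list was -0.12 a day beside 0.02 for all genes tested. Over the same days the slope of Ifng was 0.29 and was not called. Among the 8 classes compared, Gbp2 was highest in neutrophil-like cells (161 CPM), Cxcl10 and Irgm1 in monocyte-like cells (268 and 49.4) and Gbp5 in alpha-beta T cell-like cells (52.7), and the part of the shares of these classes in the slopes was not tested. Type I interferons induce many of these genes too. The others that fell were Srgn, the release genes Stx11, Lyst and Coro1a (3 of 7), Tnf and Ccl4 (2 of 7 other effectors), the factors Zeb2 and Prdm1 (2 of 8) and Xcr1, with slopes from -0.13 (Xcr1) to -0.35 (Tnf). Srgn, Stx11, Lyst, Tnf and Ccl4 were also highest in neutrophil-like cells among the 8 classes compared. Xcr1 was highest in gamma-delta T cell-like cells, at 178 CPM, against 65.3 in monocyte-like and 49.1 in dendritic cell-like cells. Of the 8 receptors of the activating cytokines, 0 rose and 0 fell. Without day 1 or without day 7, edgeR called 0 and 1 of all genes in this trend.

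Within the classes, 0 genes of the lists were called in any comparison. The numbers tested were 48 in NK cell-like, 49 in alpha-beta T cell-like and 38 in gamma-delta T cell-like cells. At an unadjusted p under 0.05 edgeR's tests gave 6 genes between the groups and 8 over days in NK cell-like cells, 3 and 10 in alpha-beta T cell-like cells, and 3 and 5 in gamma-delta T cell-like cells. Over all genes tested, the shares with such a p were 5.29 and 6.36%, 3.84 and 9.56%, and 2.94 and 6.03%. The median log2 fold change between the groups in NK cell-like cells was -0.07 over the lists, beside -0.02 over all genes tested.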

How the data were processed

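CD45+ cells were sorted from skin wounds and sequenced by the authors as 8 single-cell libraries. Per the study's methods the libraries were made on the BD Rhapsody platform, whereas the series' design text names 10X Genomics. The reads were filtered with fastp 0.20.1, aligned with STAR and counted with UMI-tools against Ensembl 92, and the submitters' processing notes list mm9 as the build. The deposited tables hold the authors' UMI counts per gene and cell, not normalized.

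The members, gene lists and tests were chosen with earlier results of these data known. A cell was kept if it had more than 200 genes detected and less than 20% of its UMIs from mitochondrial genes. UMIs of mitochondrial genes were left out of all totals. Cells were clustered with scanpy 1.11.5 and leidenalg 0.10.2 in 2 steps, on all cells and then on lymphoid cells, without the 7 members. UMIs were summed per library and class and tested with edgeR 4.0.16 (quasi-likelihood, TMM scaling, Benjamini-Hochberg adjustment over all genes that passed its filter on low counts, threshold 0.05). Day was a block for the difference between groups, and group a term for the slope over days. A library entered a class with at least 20 cells. Nothing pairs single animals across groups, and the p-values measure the spread between libraries. Intervals are exact and cover counting error only. The SE beside a log2 value was calculated back from edgeR's test, as the absolute value divided by the square root of its F statistic. In simulated counts, 100% of 200 genes changed by 2 on the log2 scale were recovered among the 13084 genes that passed the filter in counts simulated for the all-cells comparison of the groups. The simulation gave all genes the same fixed dispersion and no effect of day, and changed only well-counted genes. In the real counts the SE of the members in that comparison was 0.71 (Ifng) to 1.31 (Gzma). The recovery therefore does not measure the power of the test for the members.

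The genes named are the 7 members, the 3 genes most correlated with each (at least 100 UMIs), and from the pathway lists every gene past the threshold, otherwise at most 4 of a list with the most UMIs. Marker genes of classes, leading genes of clusters, the genes compared for cluster 10 and Il12b were named in addition. Alternatives were DESeq2 1.42.0 and its size factors, no filter, no day term, other resolutions, cells classed singly by markers, doublets removed, all barcodes, at least 500 genes per cell, at least 10 cells, other thinning, and each day left out. Leaving out lymphoid clusters 8 or 10, cluster 10 together with day 5, or the control library of day 5 was added after the data had been seen.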

Additional observations from a re-analysis of the deposited data

Results flagged for a closer look

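In 6 of the 7 genes the difference between diabetic and control wounds pointed one way on day 3 and the other way on day 5, in levels summed over all cells. The diabetic level divided by the control level was 0.0754 on day 3 and 18.9 on day 5 for Gzma, 0.280 and 8.75 for Gzmb, and 0.220 and 6.61 for Prf1. It was 0.243 and 3.99 for Ifng, 0.189 and 6.17 for Nkg7, and 0.479 and 12.1 for Xcl1. With 1 library for each group and day, the difference between the days was not tested. The share of NK cell-like cells differed in the same direction on these days (1.97 and 0.625% of cells in control and diabetic wounds on day 3, 0.458 and 3.36% on day 5), and the day 5 ratios rest on the control library that stood apart. The part of either in the ratios was not tested.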

How the results depend on the processing

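Each test rests on 7 or 8 libraries of pooled mice, a call on 1 day has no replicate, and Gzmc in NK cell-like cells rests on few cells. The day term pairs the diabetic and the control library of a day. Over 88 results and 771 alternative values, 658 kept their direction and call or stayed within the spread. A further 60 were classed as moved and 15 as stronger. The sign turned in 38, none of which had passed the threshold. The causes were not tested. Between the groups in all cells, Gzma was at -0.057 (log2) without the day term. In NK cell-like cells the difference in Ifng (0.03) was at -0.00038 with DESeq2, -0.036 without a filter, -0.18 with at least 10 cells and -0.31 without cluster 10 and with at least 10 cells, where Gzmb was at 0.090, Gzmc at -0.34 and the slope of Gzmc at 0.13. Leaving out day 5 as well put Ifng at -0.027 and the slope of Gzmc at 0.046. In alpha-beta T cell-like cells, the differences in Ifng and Nkg7 were at 0.15 and 0.18 with cells classed singly, and that in Nkg7 at 0.41 without cluster 8. In gamma-delta T cell-like cells the difference in Xcl1 was at 0.72 with cells classed singly.

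The number of members called was 0 throughout except as follows. In NK cell-like cells 1 member (Gzmc, 2.63, adjusted p = 0.0073) was called between the groups by edgeR with cells classed singly, and 1 over days without the filter (Gzmc, -0.31, adjusted p = 0.0026). In alpha-beta T cell-like cells 1 member was called over days with DESeq2, 3 without the filter and 1 without cluster 8. Leaving out each day in turn gave 0 to 2 members between the groups and 0 to 2 over days in NK cell-like cells, and 0 to 3 over days in alpha-beta T cell-like cells. Of all genes, the same fits called 0 to 48 between the groups and 0 to 105 over days in NK cell-like cells. In alpha-beta T cell-like cells they called 0 to 97 of all genes over days.

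Of all genes, DESeq2 called 84 between the groups in all cells, 2781 over days and 2 for the difference in slope, where edgeR called 0, 1326 and 0, and edgeR without the filter called 1 between the groups. In NK cell-like cells edgeR called 3 genes between the groups, against 0 with DESeq2, its size factors or at least 10 cells (also without cluster 10, with day 5 kept or left out), 14 without the filter and 5 without doublets, and over days 20 against 84 without the filter. In alpha-beta T cell-like cells it called 0 between the groups and 40 without the filter, and over days 32 against 67 with DESeq2, 244 without the filter, 13 with cells classed singly and 64 without cluster 8. In gamma-delta T cell-like cells it called 0 over days, against 5 with DESeq2, 75 without the filter, 10 with cells classed singly and 16 without the control library of day 5.

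Leaving out each day in turn, the log2 differences between the groups in all cells ran from -0.96 to 1.38 for Gzma, -0.60 to 0.92 for Prf1, -0.46 to 0.94 for Ifng, -0.52 to 1.11 for Nkg7 and -0.29 to 1.23 for Xcl1, and the slopes from -0.37 to 0.49 for Gzmc and -0.015 to 0.28 for Xcl1. The slopes in all cells ran from 0.016 to 0.22 for Gzma, 0.0080 to 0.19 for Gzmb, 0.012 to 0.17 for Nkg7 and 0.029 to 0.25 for Prf1. In NK cell-like cells the differences ran from -0.19 to 0.13 for Ifng and -0.022 to 0.31 for Xcl1. Those of Nkg7 ran from -0.64 to -0.095, of Gzmb from -0.62 to -0.033 and of Prf1 from -0.57 to -0.083. The slopes there ran from -0.048 to 0.055 for Gzma, -0.18 to 0.19 for Gzmb, -0.70 to 0.41 for Gzmc, -0.33 to 0.031 for Prf1, -0.0056 to 0.050 for Ifng and -0.27 to 0.11 for Xcl1. In alpha-beta T cell-like cells the differences ran from -0.046 to 1.83 for Gzma, -0.71 to 0.087 for Ifng and -0.47 to 0.34 for Nkg7, and the slope of Xcl1 from -0.15 to 0.20. In gamma-delta T cell-like cells the difference in Xcl1 ran from -1.10 to 0.31.

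The share of UMIs in NK cell-like cells, with cells classed singly, was 39.4% for Gzma, 17.4% for Gzmb, 42.1% for Gzmc, 44.6% for Prf1, 28.7% for Ifng, 29.8% for Nkg7 and 38.1% for Xcl1, and that of Gzma was 64.3% at either other resolution. Without thinning, the share of NK cell-like cells with a UMI was 62.7% for Gzmb, 43.9% for Prf1, 37.9% for Ifng, 82.4% for Nkg7 and 67.7% for Xcl1. At 2000 UMIs it was 34.1% for Prf1, 24.5% for Ifng, 77.7% for Nkg7 and 61.3% for Xcl1.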
